A study of Homo sapiens with 6 samples.

Results

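The replication-dependent histone genes encode the linker histone H1 and the core histones H2A, H2B, H3 and H4 that package newly made DNA. They were taken here as the genes with the symbols H1-1 to H1-5, or with symbols that start with H2AC, H2BC, H3C or H4C and a number, listed above 0 in at least 1 library. This rule gave 61 of the 20036 genes in the table, with 4 genes of H1, 15 of H2A, 18 of H2B, 10 of H3 and 14 of H4. A further 8 genes with such symbols (H1-1, H2AC1, H2AC21, H2BC1, H3C4, H3C14, H3C15 and H4C7) were listed at 0 in all 6 libraries. All 100-base stretches of H3C4, H3C14 and H3C15 also occur in other genes, so their 0 need not mean absent RNA. Of the 61 genes, 11 share most of their annotated 100-base stretches with other genes, and the division of reads among those is uncertain. They include H3C12, H3C13, H4C11, H4C12, H4C14 and H4C15, which enter the H3 and H4 sums below. RNA was measured in MV411, an established human cell line from a monocytic acute myeloid leukaemia. One group was exposed for 48 h to corilagin, a plant ellagitannin, and the other for 48 h to DMSO as the control, with 3 libraries in each group. Both groups came from the same line and carry the genotype label WT, the sources used here give no corilagin dose, and the labels do not say whether the 3 libraries of a group came from separate cultures. The p-values therefore rest on the spread among libraries, part of which may be technical.

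Messenger RNAs of these genes are made in large amounts while DNA is replicated. Unlike other mRNAs they normally end in a conserved stem-loop, which is bound by the stem-loop binding protein SLBP, and carry no poly(A) tail. Some of the genes can also yield polyadenylated transcripts that run past the stem-loop to a poly(A) signal downstream, a form described in differentiating and resting cells. The libraries were made from poly(A) RNA, so they report on polyadenylated or carried-over histone transcripts and not on the whole histone mRNA pool.

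The stem-loop shows which annotated transcripts run beyond the usual end of the mRNA. It was read from the transcripts of GENCODE release 29 (GRCh38) and was found in 26 of the 57 genes annotated there. For most of the others the annotated transcript ends at the stop codon, so a stem-loop could not be found in it. The 16 bases of the stem-loop stand in capitals in 6 genes that are described below, all on chromosome 6, with 5 bases on either side.
H2AC6: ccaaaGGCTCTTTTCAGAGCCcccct
H2AC11: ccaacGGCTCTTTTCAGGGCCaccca
H2BC4: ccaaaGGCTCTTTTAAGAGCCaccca
H2BC15: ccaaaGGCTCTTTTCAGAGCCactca
H3C10: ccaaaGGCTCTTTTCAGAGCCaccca
H4C8: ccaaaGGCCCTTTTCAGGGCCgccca
The form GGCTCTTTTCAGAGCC was found in 4 H2A, 8 H2B and 1 H3 genes, and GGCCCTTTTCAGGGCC in 5 H4 genes. In 20 of the 26 genes an annotated transcript went on for at least 100 bp past the stem-loop, and 15 of these 20 held AATAAA or ATTAAA in that stretch. H2AC6 was annotated for 1128 bp past it with 3 such signals, H4C8 for 1655 bp with 5, and H3C10 for 769 bp with 2.

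The promoters of the 4 genes with the most RNA, which include 3 that rose and 1 that fell, show which elements the genes share. The 250 bases before the start of each are from RefSeq (GRCh38.p14), at chr6:26123922-26124171 on the plus strand for H2AC6, and on the minus strand at chr6:27132796-27133045 for H2BC11, chr6:27146859-27147108 for H2BC12 and chr6:26056471-26056720 for H1-2. Capitals mark matches to TATAAA (the TATA box) and ATTTGCAT (the octamer of histone promoters), searched on both strands. They also mark CCAAT and, as an element known from H1 genes, AAACACA.
H2AC6: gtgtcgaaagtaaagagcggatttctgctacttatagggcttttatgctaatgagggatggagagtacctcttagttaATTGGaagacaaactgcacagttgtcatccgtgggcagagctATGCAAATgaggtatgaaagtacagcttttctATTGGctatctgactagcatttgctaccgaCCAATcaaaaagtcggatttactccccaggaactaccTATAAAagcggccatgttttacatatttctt
H2BC11: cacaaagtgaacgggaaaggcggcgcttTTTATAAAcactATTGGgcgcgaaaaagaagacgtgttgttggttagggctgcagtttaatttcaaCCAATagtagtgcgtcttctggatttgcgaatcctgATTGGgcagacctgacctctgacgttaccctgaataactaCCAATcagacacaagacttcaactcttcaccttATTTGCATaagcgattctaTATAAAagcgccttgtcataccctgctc
H2BC12: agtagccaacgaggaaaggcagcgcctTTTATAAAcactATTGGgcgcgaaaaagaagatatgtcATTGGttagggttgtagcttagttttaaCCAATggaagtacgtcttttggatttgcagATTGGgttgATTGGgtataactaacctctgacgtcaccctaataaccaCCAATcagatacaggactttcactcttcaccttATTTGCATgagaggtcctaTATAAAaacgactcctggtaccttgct
H1-2: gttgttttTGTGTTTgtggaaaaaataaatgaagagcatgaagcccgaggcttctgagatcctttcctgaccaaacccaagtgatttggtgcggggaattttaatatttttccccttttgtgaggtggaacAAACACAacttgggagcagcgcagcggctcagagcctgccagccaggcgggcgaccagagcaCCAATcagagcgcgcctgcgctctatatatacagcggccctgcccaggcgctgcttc
In H2BC11 and H2BC12 the octamer began 47 and 46 bases before the start and TATAAA 28 and 27 bases before it. Matches of TATAAA to both strands overlap each other at 220 and 222 bases before the start in H2BC11. Among the 55 histone genes with a promoter in the table, ATTTGCAT occurred in 22 (40.0%), against 1.66% of 27305 promoters of that length. It was found in 9 of 14 H2A and 13 of 17 H2B promoters, and in none of the H1, H3 or H4 promoters. CCAAT occurred in 46 of the 55 (83.6%), against 33.0% of all promoters, and was in 3 of 12 H4 promoters. TATAAA occurred in 35 (63.6%), against 11.1%, and AAACACA in the 4 H1 promoters alone among the histone genes, against 4.95% of all promoters. The octamer was present in 5 of the 10 genes called higher, in 1 of the 2 called lower and in 6 of the 9 tested genes without a call. H2A and H2B genes that lie head to head share much of the 250 bases, so the same match can be counted in both. The octamers of H2AC6 and H2BC4 are 1 site, as are those of H2AC11 and H2BC11, and these genes are among the 10 called higher. The counts are thus of genes and not of separate sites.

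Expression was deposited as FPKM, fragments scaled by gene length and library total, and the 6 libraries held 17776956 to 21640689 fragments. Over the 9868 genes whose mean reached 1 FPKM, limma on log2(FPKM + 1) called 1171 genes (11.9%) higher and 1331 (13.5%) lower in corilagin at an adjusted p under 0.05, and the median log2 difference was 0.03. The DMSO libraries differed among themselves along GC content. The difference of DMSO replicate 3 from the mean of the other DMSO libraries followed the GC content of the transcript, with a Spearman correlation of -0.84 across 9859 genes, whereas the difference of the corilagin libraries from DMSO replicate 3 did not (-0.0048). DMSO replicates 1 and 2 thus stood apart in GC from the other 4 libraries. Genes are not independent replicates, and the correlations are given as a description. Results are given also with a GC trend removed from each library, without DMSO replicate 3 or against it alone, where this changes a call or the size. Of 12 myeloid markers, 11 were at 1 FPKM or more in the mean, with summed levels of 557 to 560 FPKM in corilagin libraries and 498 to 548 FPKM in DMSO libraries. Of the 11, 3 were called higher and 2 lower. CD68 was the exception, at 0 in 5 libraries and at 1 fragment in the other. Of 10 markers of other cell types 4 were at 0 throughout, and the list summed to 25.4 to 27.9 FPKM in corilagin libraries and 21.9 to 22.8 FPKM in DMSO libraries, most of it PECAM1. The part of these markers in the results was not tested.

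The RNA of the histone genes was more abundant in the corilagin libraries, most of it from H2A and H2B. The 61 genes summed to 169, 159 and 151 FPKM in corilagin libraries and to 108, 102 and 97.3 FPKM in DMSO libraries, so the groups did not overlap. Counted as fragments, without division by length, they held 3347, 2903 and 2558 fragments in corilagin libraries and 1589, 1603 and 1389 fragments in DMSO libraries. Scaled by library total, the ratio of these fragments was 1.85, against a ratio of 1.56 for summed FPKM. A large part of the rise came from H2AC6 alone, with 1085, 1073 and 882 fragments in corilagin libraries and 187, 241 and 209 fragments in DMSO libraries. In bulk RNA, a change in the share of cells that make a transcript and a change in the amount per cell cannot be told apart. No test was made of these sums, since they run over genes chosen together.

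The class sums differed in direction, and most of the fall in H1 came from 1 gene. Summed H2A genes held 46.6 ± 2.82 FPKM in corilagin libraries and 19.9 ± 1.02 FPKM in DMSO libraries, a ratio of 2.34. Summed H2B genes held 75.2 ± 4.87 FPKM in corilagin libraries and 42.1 ± 1.94 FPKM in DMSO libraries, a ratio of 1.79. For H4 the sums were 8.65 ± 1.02 FPKM in corilagin libraries and 5.87 ± 1.30 FPKM in DMSO libraries, a ratio of 1.47 (SD, n = 3 each throughout). In these 3 classes every corilagin library was above every DMSO library. Summed H1 genes went the other way, at 20.8 ± 1.50 FPKM in corilagin libraries and 27.5 ± 2.89 FPKM in DMSO libraries, a ratio of 0.757, also without overlap. Without H1-2 the H1 sums were 1.92 ± 0.227 FPKM in corilagin libraries and 2.22 ± 0.226 FPKM in DMSO libraries, a ratio of 0.867 with overlapping groups. Summed H3 genes held 8.42 ± 0.304 FPKM in corilagin libraries and 6.97 ± 1.39 FPKM in DMSO libraries, and these groups overlapped. Much of a class sum came from 1 gene. H2AC6 made up 65.7% of the H2A sum in corilagin libraries and 33.5% in DMSO libraries, and without it the H2A ratio was 1.21 with overlapping groups. The H2B ratio without its highest gene, H2BC12, was 1.74 with no overlap. Without H4C8 the H4 ratio was 1.32 and the groups overlapped. The overlaps above are in summed FPKM. Counted as fragments scaled by library total, H2A without H2AC6, all H3 genes and H4 without H4C8 did not overlap, with corilagin higher. Their ratios were then 1.21, 1.38 and 1.57. H1 without H1-2 overlapped on that scale as well, at a ratio of 0.869.

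**Figure D1:**
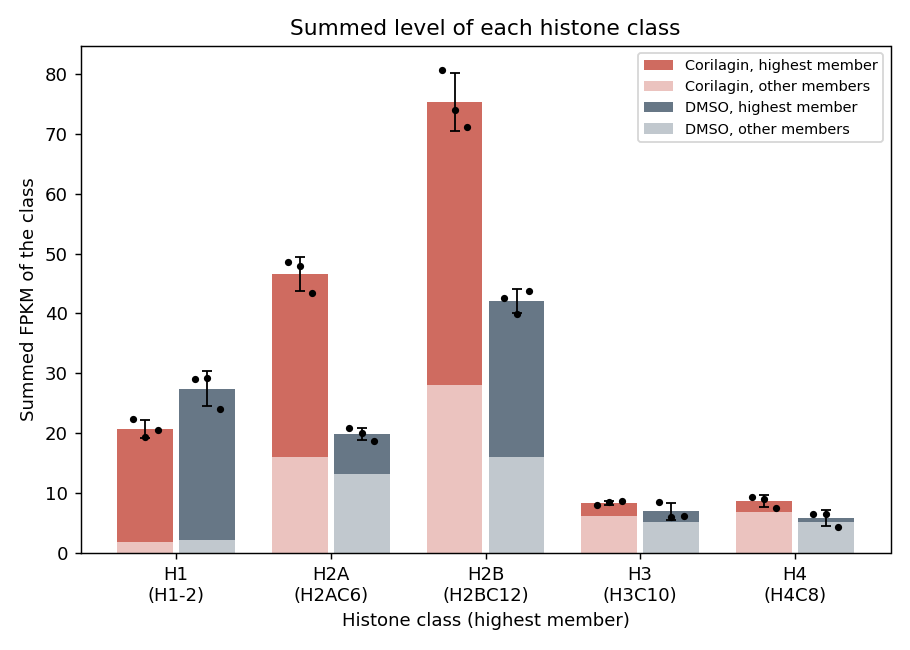
Summed FPKM of each histone class (vertical axis), with corilagin left of DMSO in each class. Bars are means of 3 libraries, error bars the SD of the class sum and points the libraries, and the darker part of each bar is the highest gene. H2A reached 46.6 FPKM in corilagin and 19.9 FPKM in DMSO, and the darker H2AC6 part accounts for most of that gap.

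Of the 61 genes, 21 passed the filter of a mean of 1 FPKM, and 10 of these were called higher and 2 lower in corilagin. The share called higher was 47.6%, beside 11.9% of all tested genes, and the median log2 difference of the 21 was 0.30, beside 0.03 for all tested genes. By class, H2A had 3 higher and 1 lower of 8 tested, H2B 5 higher of 8, H3 1 higher of 2, H4 1 higher of 2 and H1 1 lower of 1. In 4 of the 21 (H2AC16, H2BC15, H4C5 and H4C8) the DMSO mean was below 1 FPKM and the corilagin mean above it. In 1 (H2AC14) the reverse held, so these passed the filter through 1 group. H2BC15 and H4C8 are among the 10 called higher, so the share of 47.6% includes genes that entered through corilagin. Without a filter both were also called higher (adjusted p = 0.0110 and 0.00686 by limma). The genes closest to the filter were H2BC15 and H2AC14, both at a mean of 1.07 FPKM inside it, and H3C2 at 0.917 and H2BC7 at 0.916 outside it. With limma-voom on recovered fragments, which called 12.6% of all genes higher and 13.5% lower, 7 histone genes stayed higher and 0 were lower, with 2 lower at an unadjusted p under 0.05. The 5 calls that ended so were those of H2AC13, H2BC5, H3C10, H1-2 and H2AC20, at adjusted p of 0.0512 to 0.0728. With a GC trend removed from each library, a fit that called 21.4% of 9859 genes higher and 23.0% lower, 12 histone genes were higher and 1 lower, and 9 of those 12 were among the 10 above. The calls of H2AC6, H2BC11, H2BC12, H2BC15 and H4C8 held without each of the 6 libraries in turn. Those of H2AC11 and H2BC5 held without DMSO replicate 1 or DMSO replicate 3 and ended without any of the other 4 libraries. Those of H1-2, H2AC13, H2AC20, H2BC4 and H3C10 held without DMSO replicate 3 and ended without any of the other 5. The fit without DMSO replicate 3 called 4030 of the 9868 genes higher and 3597 lower, so a call that holds in it is common. Against DMSO replicate 3 alone, with no test, the log2 differences were 1.97 for H2AC6, 1.24 for H2BC11, 0.84 for H2BC12, 0.68 for H4C8 and 0.50 for H2BC15. In that comparison H2BC4 was at 0.23, H1-2 at -0.20 and H2AC20 at -0.20, against 0.67, -0.40 and -0.41 with the 3 DMSO libraries. Adjusted p-values below are from limma with Benjamini-Hochberg adjustment over the 9868 genes.

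**Figure D2:**
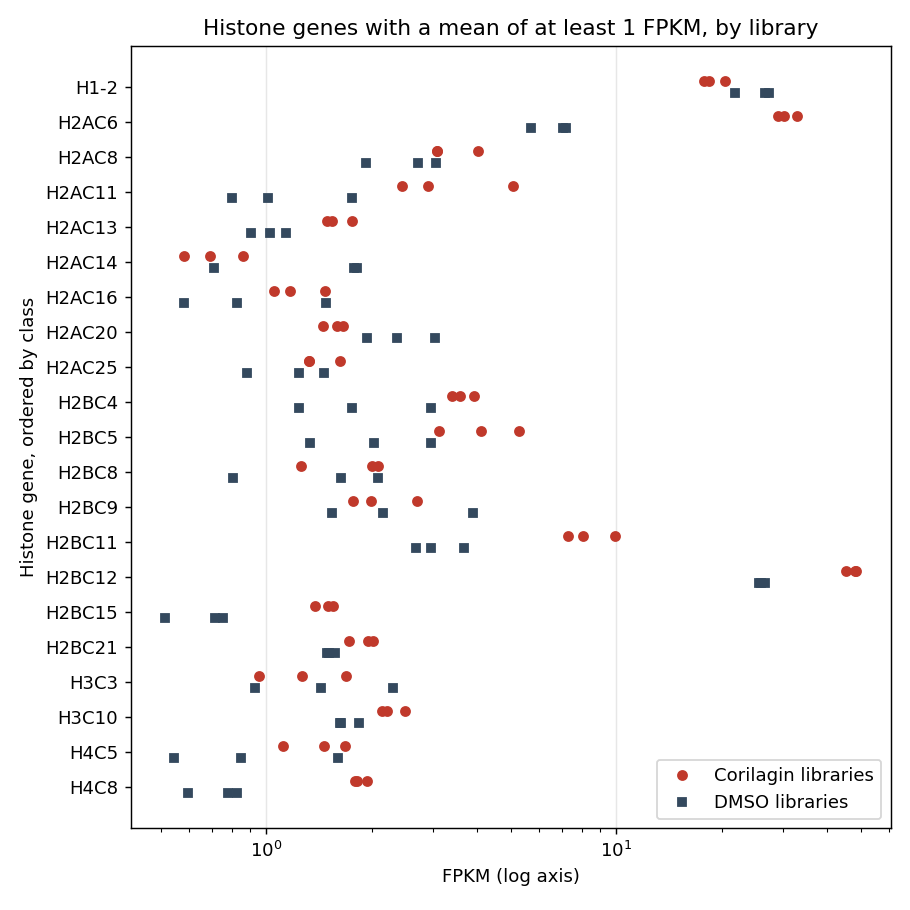
FPKM in each library (horizontal log axis) for the 21 histone genes whose mean reached 1 FPKM (rows, ordered by class). Round points are the 3 corilagin libraries, drawn above the square points of the 3 DMSO libraries. H2AC6 shows the widest gap, with corilagin libraries at 28.9 to 32.9 FPKM and DMSO libraries at 5.70 to 7.20 FPKM.

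H2AC6 (ENSG00000180573, older symbol HIST1H2AC) rose most of the tested histone genes. It encodes a core histone H2A and lies at chr6:26124145-26139116 on GRCh38. Its level was 30.1, 32.9 and 28.9 FPKM in corilagin libraries and 5.70, 7.20 and 7.05 FPKM in DMSO libraries, from 187 to 1085 fragments. The means were 30.6 ± 2.05 FPKM in corilagin libraries and 6.65 ± 0.824 FPKM in DMSO libraries (SD, n = 3 each), a ratio of 4.60. The log2 difference was 2.05 (SE 0.107, adjusted p = 0.00101), and the call held in all 15 alternative fits. Its authors' length of 1668 bp equals its longest annotated transcript, which runs past the stem-loop printed above, and no 100-base stretch of that transcript occurs in another gene.

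The other H2A genes were far lower, and their changes smaller and less stable. H2AC11 was at 5.06, 2.90 and 2.44 FPKM in corilagin libraries and at 1.75, 1.01 and 0.799 FPKM in DMSO libraries, without overlap. Its log2 difference was 1.01 (SE 0.240, adjusted p = 0.0271), from 7 to 54 fragments. Its stem-loop, printed above, was the single copy of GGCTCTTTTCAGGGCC among the 26 found. H2AC13 was at 1.49, 1.76 and 1.55 FPKM in corilagin libraries and at 1.03, 0.906 and 1.14 FPKM in DMSO libraries, a log2 difference of 0.36 (SE 0.0795, adjusted p = 0.0220). It shares 57.7% of its 100-base stretches with H2AC14, so the division of reads between the pair is uncertain. H2AC20 was the H2A gene that fell. It was at 1.59, 1.45 and 1.66 FPKM in corilagin libraries and at 2.37, 3.03 and 1.94 FPKM in DMSO libraries, a log2 difference of -0.41 (SE 0.122, adjusted p = 0.0465). With the GC trend removed its difference was -0.19 and no longer called (adjusted p = 0.108).

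Among H2A genes that were not called, H2AC8 did not overlap between groups. It was at 4.02, 3.07 and 3.07 FPKM in corilagin libraries and at 3.05, 1.93 and 2.72 FPKM in DMSO libraries, with the lowest corilagin and the highest DMSO value nearly equal (adjusted p = 0.144). It was called higher with the GC trend removed (adjusted p = 0.0417) and without DMSO replicate 3 (adjusted p = 0.0316). The groups of the remaining tested H2A genes overlapped. H2AC14 was at 0.582, 0.859 and 0.689 FPKM in corilagin libraries and at 1.82, 1.78 and 0.709 FPKM in DMSO libraries, and was not called. DMSO replicate 3 was low and the other DMSO libraries high, and without that replicate it was called lower, with a log2 difference of -0.71. Against DMSO replicate 3 alone the difference was -0.0023. H2AC16 was at 1.05, 1.17 and 1.47 FPKM in corilagin libraries and at 1.48, 0.827 and 0.584 FPKM in DMSO libraries (adjusted p = 0.347). H2AC25 was at 1.62, 1.33 and 1.33 FPKM in corilagin libraries and at 0.880, 1.24 and 1.46 FPKM in DMSO libraries (adjusted p = 0.315). With the GC trend removed H2AC16 was called higher, with a log2 difference of 0.44 (adjusted p = 0.0270). Without DMSO replicate 3 H2AC25 was called higher, with a log2 difference of 0.24 (adjusted p = 0.0351), and against that replicate alone it was at -0.022.

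H2BC12 (ENSG00000197903, older symbol HIST1H2BK), a core histone H2B gene, had the highest level of all 61 genes and rose. It was at 48.1, 48.3 and 45.4 FPKM in corilagin libraries and at 26.5, 25.5 and 25.9 FPKM in DMSO libraries, with means of 47.3 ± 1.64 FPKM in corilagin libraries and 26.0 ± 0.522 FPKM in DMSO libraries (SD, n = 3 each). The ratio was 1.82 and the log2 difference 0.84 (SE 0.0715, adjusted p = 0.00189). A share of 28.4% of its annotated 100-base stretches also occurs in other genes, H2BC12L among them. H2BC11 (ENSG00000124635, older symbol HIST1H2BJ) also rose. It was at 9.94, 7.28 and 8.05 FPKM in corilagin libraries and at 2.67, 3.67 and 2.96 FPKM in DMSO libraries, a ratio of 2.72 and a log2 difference of 1.20 (SE 0.138, adjusted p = 0.00348). Both genes were called in all 15 alternative fits, and no corilagin library of either overlapped a DMSO library.

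H2BC15, H2BC5 and H2BC4 were the other H2B genes that rose. H2BC15 was at 1.55, 1.38 and 1.50 FPKM in corilagin libraries and at 0.716, 0.514 and 0.752 FPKM in DMSO libraries, a ratio of 2.23 and a log2 difference of 0.58 (SE 0.0818, adjusted p = 0.00658). With the GC trend removed its difference was 0.20 and the call ended (adjusted p = 0.244). Its gene model of 4265 bp overlaps exons of H2AC16 on the same strand and of H2AC15 on the other strand, and with no statement of stranded counting its reads cannot be told apart from theirs. H2BC5 was at 5.26, 4.10 and 3.11 FPKM in corilagin libraries and at 2.95, 1.33 and 2.03 FPKM in DMSO libraries (log2 difference 0.74, SE 0.221, adjusted p = 0.0476). H2BC4 was at 3.58, 3.39 and 3.93 FPKM in corilagin libraries and at 1.76, 1.24 and 2.96 FPKM in DMSO libraries (log2 difference 0.67, SE 0.195, adjusted p = 0.0443). Neither gene's groups overlapped, and both lay close to the threshold.

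The other 3 tested H2B genes were not called. H2BC21 did not overlap, at 1.95, 2.02 and 1.72 FPKM in corilagin libraries and at 1.51, 1.57 and 1.49 FPKM in DMSO libraries (adjusted p = 0.0824). It was called higher with the GC trend removed (adjusted p = 0.0378), without DMSO replicate 3 (adjusted p = 0.0343) and rescaled to equal sums (adjusted p = 0.0344). H2BC8 was at 2.08, 1.25 and 2.01 FPKM in corilagin libraries and at 2.08, 1.63 and 0.805 FPKM in DMSO libraries (adjusted p = 0.539). H2BC9 was at 2.70, 1.99 and 1.77 FPKM in corilagin libraries and at 1.54, 2.16 and 3.90 FPKM in DMSO libraries (adjusted p = 0.709). In H2BC8 and H2BC9 DMSO replicate 3 held the extreme value of its group, low in H2BC8 and high in H2BC9.

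H1-2 (ENSG00000187837, older symbol HIST1H1C), a linker histone gene, fell. It was at 20.5, 17.8 and 18.4 FPKM in corilagin libraries and at 26.7, 27.3 and 21.8 FPKM in DMSO libraries, from 246 to 401 fragments. The means were 18.9 ± 1.42 FPKM in corilagin libraries and 25.3 ± 3.03 FPKM in DMSO libraries (SD, n = 3 each), a ratio of 0.747, and the log2 difference was -0.40 (SE 0.110, adjusted p = 0.0399). The groups did not overlap, but DMSO replicate 3 lay between the other DMSO libraries and the corilagin libraries. With limma-voom on recovered fragments the adjusted p was 0.0512, and with the GC trend removed the difference was -0.23 (adjusted p = 0.0132). H1-2 made up 90.8% of the H1 sum in corilagin libraries and 91.9% in DMSO libraries. The other H1 genes were below the filter, with a mean higher in corilagin libraries in 1 of 3.

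The nucleosome core gene H4C8 rose, and H3C10 was called higher in fewer fits. H4C8 (ENSG00000158406, older symbol HIST1H4H) was at 1.94, 1.80 and 1.82 FPKM in corilagin libraries and at 0.823, 0.599 and 0.780 FPKM in DMSO libraries, a ratio of 2.52. Its log2 difference was 0.72 (SE 0.0783, adjusted p = 0.00305), and it was called in all 14 alternative fits that tested it. H3C10 (ENSG00000278828, older symbol HIST1H3H) was at 2.14, 2.21 and 2.49 FPKM in corilagin libraries and at 1.63, 1.63 and 1.85 FPKM in DMSO libraries, a log2 difference of 0.28 (SE 0.0800, adjusted p = 0.0431). It was called in 5 of 14 alternative fits and lost its call, among others, without a filter (adjusted p = 0.0739), rescaled by median of ratios (adjusted p = 0.0582) and with the replicate block (adjusted p = 0.0549). The groups of both genes were separate, and both have annotated transcripts that run past the stem-loops printed above. H4C5 was at 1.68, 1.12 and 1.46 FPKM in corilagin libraries and at 1.61, 0.847 and 0.546 FPKM in DMSO libraries (adjusted p = 0.242). H3C3 was at 0.951, 1.26 and 1.69 FPKM in corilagin libraries and at 2.30, 1.44 and 0.926 FPKM in DMSO libraries (adjusted p = 0.637). The groups of H4C5 and H3C3 overlapped, on 4 to 22 fragments.

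**Figure D3:**
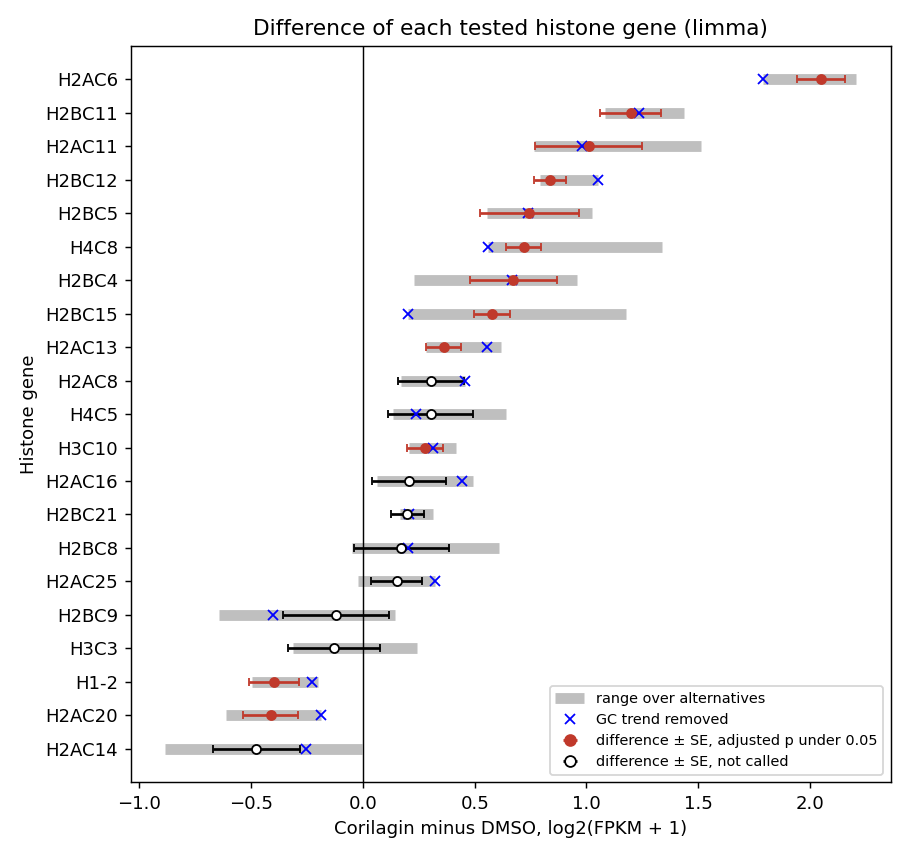
Log2 difference, corilagin minus DMSO, of log2(FPKM + 1) (horizontal axis) for the 21 tested histone genes (rows). Points are limma estimates with their SE, filled where the adjusted p was under 0.05, crosses are the estimates with a GC trend removed, and grey bars span the alternatives, of which other pseudocounts and limma-voom use another log2 scale. H2AC6, H2BC11, H2BC12 and H4C8 were above 0 and called in all alternatives that tested them.

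The 40 genes below the filter were also mostly higher in mean with corilagin, on few fragments. They summed to 370, 301 and 245 fragments in corilagin libraries and to 217, 212 and 189 fragments in DMSO libraries, and none of them exceeded 52 fragments in a library. Their mean FPKM was higher in corilagin libraries for 27 and lower for 13. This split was not counted over all genes. Without a filter the median log2 difference was 0.0093 for all genes above 0 and 0.16 for the 61 histone genes. Tested without a filter among all 15921 genes above 0, of which limma called 5.87% higher and 6.44% lower, 10 of the 61 histone genes were called higher and 1 lower, and 6 of those 10 were among the 10 called with the filter. Below 1 FPKM, H3C6, H2BC18 and H2BC17 rose and H1-4 fell. H3C6 had 52, 50 and 43 fragments in corilagin libraries and 20, 23 and 26 fragments in DMSO libraries (log2 difference 0.40, adjusted p = 0.0124). H1-4, a linker histone gene, had 11, 5 and 3 fragments in corilagin libraries and 19, 16 and 14 fragments in DMSO libraries (log2 difference -0.59, adjusted p = 0.0311). Both pairs of groups were separate. H2BC18 had 19, 20 and 15 fragments in corilagin libraries and 8, 10 and 7 fragments in DMSO libraries (adjusted p = 0.0129), and H2BC17 had 12, 8 and 9 fragments in corilagin libraries and 5, 1 and 4 fragments in DMSO libraries (adjusted p = 0.0439). H2BC3 had 3, 1 and 3 fragments in corilagin libraries and was listed at 0 in all DMSO libraries, so it was included through corilagin alone and had to differ. Counting all 61 genes, the groups did not overlap in 20 (32.8%) with corilagin higher and in 5 (8.20%) with corilagin lower, beside 20.2% and 16.7% of all genes above 0. Without H2BC3 the counts were 9 of 60 called higher without a filter and 19 of 60 (31.7%) not overlapping with corilagin higher.

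**Figure D4:**
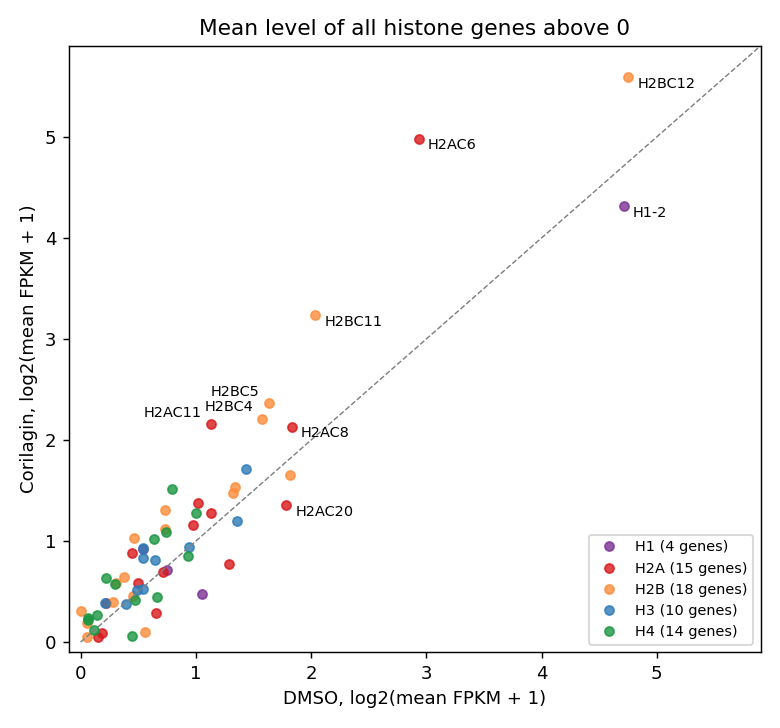
Mean level of the 61 histone genes as log2(mean FPKM + 1) in corilagin (vertical axis) against DMSO (horizontal axis), 3 libraries each, coloured by class. The diagonal marks equal means, and 43 of the 61 genes lie above it, 16 of them H2B genes. They include H2BC3, which was at 0 in DMSO and had to lie above it, and the same count over all genes was not made.

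Many H2A and H2B genes lie head to head and share a promoter region, and the partners did not always move together. There were 10 such pairs with starts 194 to 248 bp apart, and in 4 of them both genes were tested. In the pair of H2AC6 and H2BC4, 246 bp apart, both rose, with ratios of 4.60 and 1.83. In the pair of H2AC11 and H2BC11, 248 bp apart, both rose, with ratios of 2.92 and 2.72. H2AC8 and H2BC8, 233 bp apart, had ratios of 1.32 and 1.18 and no call. H2AC20, at a ratio of 0.641, fell, and its partner H2BC21, 236 bp away, had a ratio of 1.25 and no call.

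Genes whose annotated transcript runs past the stem-loop were set beside the others by count. Of the 20 genes with such a transcript, 11 were tested and 6 were called, each of them higher, beside 11.9% of all tested genes. These 6 include H2BC15 and H4C8, which passed the filter through corilagin. In 7 of the 20, H2AC11 and H4C5 among them, the authors' gene length was too short to reach 100 bp past the stem-loop, so the counted model was another one. The other 13 had 7 tested and 5 called higher. Of the 6 genes whose transcript with the stem-loop ended within 100 bp of it, 3 were tested and 2 called higher. H2BC5, which was called higher, also has an annotated transcript that reaches 384 bp past the stop codon. Of the 31 genes whose annotated transcripts hold no stem-loop, 6 were tested, with 2 called higher and 2 lower, beside 11.9% and 13.5% of all tested genes. Most of these 31 are annotated only up to the stop codon, which does not show that they lack a stem-loop or a longer transcript. H3C6, by contrast, is annotated for 1908 bp past the stop codon. The groups were not tested against each other. These 31 include H2BC12 and H1-2, so the annotation does not show where their polyadenylated RNA ended. They also include H2BC11, whose annotated transcripts reach up to 569 bp past the stop codon without a match to the stem-loop. The authors' gene lengths ranged from 387 to 5002 bp with a median of 496 bp, and the genes that rose included both long models, as for H4C8 at 2163 bp, and short ones, as for H2BC12 at 495 bp.

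Genes of the histone life cycle were counted in the same fit, beside 11.9% of all tested genes called higher and 13.5% called lower. Among 9 tested replacement histone genes, which yield polyadenylated mRNA outside replication, 1 was called. H2AJ, which encodes an H2A variant, fell, at 1.44 ± 0.159 FPKM in corilagin libraries and 2.42 ± 0.0503 FPKM in DMSO libraries (SD, n = 3 each, adjusted p = 0.00885 by limma). H2AX, which encodes an H2A used in DNA damage signalling, was at 81.4, 81.1 and 83.5 FPKM in corilagin libraries and 97.8, 101 and 66.5 FPKM in DMSO libraries (adjusted p = 0.693 by limma). The difference between these genes and the replication-dependent ones was not tested.

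Of 23 tested genes of histone pre-mRNA processing and decay, 1 rose and 4 fell. CSTF2T, a cleavage factor, rose to between 9.93 and 10.2 FPKM in corilagin libraries, against 7.28, 8.19 and 8.42 FPKM in DMSO libraries. LSM11, a part of the U7 particle that cuts histone pre-mRNA, fell to 1.62, 1.78 and 1.65 FPKM in corilagin libraries, against 2.17, 2.33 and 2.30 FPKM in DMSO libraries. The scaffold gene SYMPK, the kinase gene CDK9 and the negative elongation factor gene NELFE fell by 0.49, 0.45 and 0.49 on the log2 scale. SLBP, whose protein binds the stem-loop, was at 110, 109 and 116 FPKM in corilagin libraries and 102, 105 and 108 FPKM in DMSO libraries, separate but not called (adjusted p = 0.356). NPAT, which activates histone gene transcription, was at 7.82, 8.18 and 8.04 FPKM in corilagin libraries and 2.56, 2.82 and 7.72 FPKM in DMSO libraries (adjusted p = 0.0769). DMSO replicate 3 was close to the corilagin libraries and far from the other DMSO libraries.

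Of 24 tested genes that make or trim poly(A) tails, 1 rose (PAN2, a gene of tail trimming, log2 difference 0.41). Another 1 fell (CPSF1, log2 difference -0.59). Of 24 tested histone chaperone genes, 2 rose and 4 fell. The H3-H4 chaperone gene SPTY2D1 and the H2A-H2B chaperone gene NAP1L1 rose by 0.43 and 0.34 on the log2 scale, and TONSL, DAXX, HIRA and SSRP1 fell by 0.63, 0.52, 0.44 and 0.32. Of 47 tested S-phase and DNA replication genes, 4 rose and 8 fell, with a median log2 difference of -0.02. CCNE2, a cyclin gene of S-phase entry, the replication licensing genes CDC6 and ORC6 and the nucleotide synthesis gene RRM2 rose, by 0.93, 0.36, 0.29 and 0.34 on the log2 scale. The repair gene UNG, the polymerase gene POLD1 and the helicase genes MCM7 and GINS1 fell most, by 0.59, 0.48, 0.44 and 0.40, followed by GINS2, RFC2, CDC45 and FEN1. With the GC trend removed the calls of CSTF2T, NAP1L1 and FEN1 ended, at log2 differences of 0.12, -0.08 and -0.16. In that fit, which called 21.4% of all genes higher and 23.0% lower, 12 S-phase genes were higher and 17 lower, with a median of -0.10. It called 3 higher and 7 lower among the processing and decay genes, 4 and 8 among the chaperones and 3 and 4 among the poly(A) tail genes.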

How the data were processed

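Poly(A) RNA of 6 libraries was purified with poly-T beads, randomly primed, amplified over 15 PCR cycles and read in pairs of 150 bases, per the labels' protocols. The submitters' processing notes name fastp 0.22.0, HISAT2 2.1.0, HTSeq 0.9.1, DESeq 1.38.3 and GRCh38, without settings. The authors deposited FPKM for 20036 Ensembl genes, so each value is already divided by gene length and library total. Symbols were matched for 20011 of them.

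Fragments per gene and the authors' gene lengths were recovered from the steps of the FPKM values. Lengths came out whole, within 0.01 bp, for 100% of the 15921 genes above 0, after 369 of them were scaled by a common factor. The scaling was made to reach a whole length, so this share is no check of the recovery for those 369 genes. Fragments in genes made up 99.6% of the inferred totals. A shared factor that left the length whole was not seen, so the counts of further genes may be too low by such a factor. H4C14 may be such a gene. Its recovered length was 939 bp, against 1878 bp for H4C15, which holds all of its 100-base stretches. The recovered fragments include PCR copies.

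Differences were tested with limma 3.58.1 (R 4.3.3, trend, 2-sided) on log2(FPKM + 1), with a mean of at least 1 FPKM, Benjamini-Hochberg adjustment over all 9868 tested genes and a threshold of 0.05. The pseudocount of 1 understates changes of low genes. An exact permutation test of 3 against 3 libraries cannot go below 0.1. No pair of libraries was a duplicate (closest pair: chi-square of 2.44 per gene). Every histone gene with a mean of at least 1 FPKM is named, and in the companion lists the genes past the threshold, up to 4 in each direction by size, with SLBP, NPAT and H2AX; others were named beside counts after their values were seen. Members and lists were chosen with earlier results of these data known. The pipeline was tested on simulated data. Stem-loops, lengths and overlaps were read from GENCODE 29, which holds 57 of the 61 genes. GC content was that of the longest transcript there. For H2AC11, H2BC8, H2BC9 and H4C5 it is far longer than the authors' length, as in H2AC11 at 2250 against 493 bp. The GC trend removed from these genes thus rests partly on sequence outside the counted model.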

Additional observations from a re-analysis of the deposited data

How the results depend on the processing

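The direction of H2AC6, H2BC11, H2BC12 and H4C8 and their calls held in all fits that tested them. H4C8 passed the filter of 1 FPKM through its corilagin libraries, and was called without a filter as well. With a mean of at least 5 FPKM, 4 histone genes were tested, 3 were called higher and 1 lower, with a median log2 difference of 1.02, and 713 genes were higher in all. Without a filter the median was 0.16 over 61 histone genes and 1 was lower. With limma-voom on recovered fragments 7 histone genes were higher and 0 lower (2 at an unadjusted p under 0.05). Rescaling to equal sums shifted the median of all genes by 0.10 on the log2 scale, with 11 histone genes higher and 0 lower by limma (2 at an unadjusted p under 0.05). The split of all genes was then 1620 higher and 1059 lower, against 1171 and 1331 as deposited, and the ratios were 2.55 for H2A, 1.94 for H2B and 1.70 for all histone genes. Rescaling by median of ratios gave 8 and 2 histone genes, and 957 and 1518 genes in all. With the GC trend removed 12 histone genes were higher and 1 lower, among 2109 and 2266 genes. Without its highest gene the ratio was 0.867 for H1 and 1.21 for H2A.

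Leaving out 1 library at a time gave 5 to 13 histone genes higher and 0 to 3 lower, among 131 to 4030 genes higher and 176 to 3597 lower. Without DMSO replicate 3, 13 histone genes were called higher and 3 lower, among 4030 and 3597 genes in all. The fits without a corilagin library or without DMSO replicate 2 gave 5 higher each. The median of the tested histone genes then ranged from 0.26 to 0.39, and class ratios from 0.714 to 0.783 (H1), 2.28 to 2.43 (H2A), 1.72 to 1.84 (H2B), 1.13 to 1.37 (H3) and 1.31 to 1.58 (H4). Signs turned in genes without a call: H2BC8 ranged from -0.047 to 0.34, H2BC9 from -0.33 to 0.14 and H3C3 from -0.31 to 0.074 over these fits, and H2AC25 was at -0.022 and H3C3 at 0.24 against DMSO replicate 3 alone. Among called genes that comparison moved H2BC4 to 0.23 and H1-2 to -0.20. The cause was not tested. The labels do not pair the libraries. Deviations of same-numbered libraries correlated at 0.28, 0.079 and 0.34, the second under 0.1, and corilagin replicate 1 correlated with DMSO replicate 2 at 0.28 too, so the libraries were taken as unpaired. With the replicate block 9 histone genes were higher and 1 lower, among 1547 and 1330 genes. Genes below 1 FPKM rest on at most 52 fragments per library, which limits what can be seen in them.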
